A study of Homo sapiens with 24 samples.

Results

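Mitochondrial ribosomal protein genes are nuclear genes for the proteins of the ribosome that works inside mitochondria, and they were taken here as the 78 genes that RefSeq or the peak lists name MRPL or MRPS followed by a number. Their peaks were those of BRG1, BRM and SNF5 whose nearest transcription start site carried such a name, 215 of 80150 peaks in all. By name alone, 49 were taken as large-subunit genes (MRPL) and 29 as small-subunit genes (MRPS), of 20037 protein-coding genes. The subunit in which each protein sits was not checked, so the split into subunits below is one of names. MRPS36, which RefSeq now lists as KGD4, was matched by its older name and kept because the peaks carry that name. Whether its protein belongs to the ribosome was not checked.

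The study profiled the SWI/SNF chromatin remodelling complex in RWPE1, a cell line grown from non-cancerous human prostate epithelium. The cells that gave the 3 lists made SCHLAP1, a long noncoding RNA known from prostate tumours, from a lentivirus and were held under 2.5 ug/mL blasticidin. The complex moves nucleosomes with either of 2 ATPases, BRG1 or BRM, and SNF5 belongs to its core. Each of the 3 proteins was precipitated from chromatin cut with MNase, with 2 samples each by the labels. RWPE1 cells with the control gene LACZ were profiled for histone marks alone, so nothing below compares SCHLAP1 with LACZ. There is 1 list for each protein (51504 BRG1, 22157 BRM and 6489 SNF5 peaks). The lists hold no read count or enrichment, so depth and the spread between samples are not known, and a gene without a peak is not shown to lack the protein. Of 7 markers of basal prostate epithelium, 6 were named by a BRG1 peak; the luminal genes KRT8, KRT18 and TMPRSS2 were also named by one, and KLK3 by none. Of 7 markers of blood, endothelium, stroma and liver, 4 were named by a BRG1 peak, and none of those peaks was annotated as promoter.

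The mitochondrial ribosome translates the few proteins that mitochondrial DNA encodes, all of them parts of the respiratory chain and the ATP synthase. Its RNA is made in the organelle, but every one of its proteins is made in the cytosol from a nuclear gene and imported. Some have a counterpart in the bacterial ribosome, and others were gained in the course of evolution. Promoters of such genes are typically rich in CpG and lack a TATA box, and the factors NRF1, GABPA (a member of the ETS family) and YY1 are known regulators of nuclear genes for mitochondria.

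The promoter letters of 8 genes show what kind of sequence lies before the start, with or without a peak on it. They are the 3 genes with the widest SNF5 peak, the 2 with the widest BRG1 peak among genes with BRG1 and BRM peaks and no SNF5 peak, the first 2 by alphabet of those with no peak over the start, and MRPS12, chosen after its values were seen. Each run ends at the base before the RefSeq start (GRCh38.p14) and reads 5′ to 3′ on the gene's strand. Capitals mark matches to the motifs of NRF1, ETS factors, YY1, ZBTB33 or ZNF143 that are described below.
MRPL57: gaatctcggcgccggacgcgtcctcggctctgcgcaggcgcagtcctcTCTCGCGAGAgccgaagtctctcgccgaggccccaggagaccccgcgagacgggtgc
MRPL51: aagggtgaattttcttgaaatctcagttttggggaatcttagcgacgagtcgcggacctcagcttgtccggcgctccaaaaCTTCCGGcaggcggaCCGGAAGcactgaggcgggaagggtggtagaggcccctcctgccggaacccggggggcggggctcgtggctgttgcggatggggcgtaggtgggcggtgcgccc
MRPL48: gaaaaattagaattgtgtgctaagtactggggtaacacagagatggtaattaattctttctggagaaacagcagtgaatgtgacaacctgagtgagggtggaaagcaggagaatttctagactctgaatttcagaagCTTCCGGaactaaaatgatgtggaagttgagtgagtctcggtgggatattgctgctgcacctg
MRPL36: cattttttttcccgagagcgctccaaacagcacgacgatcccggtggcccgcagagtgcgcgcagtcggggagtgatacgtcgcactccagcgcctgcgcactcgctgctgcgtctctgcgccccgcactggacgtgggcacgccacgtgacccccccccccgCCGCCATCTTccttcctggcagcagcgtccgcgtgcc
MRPL14: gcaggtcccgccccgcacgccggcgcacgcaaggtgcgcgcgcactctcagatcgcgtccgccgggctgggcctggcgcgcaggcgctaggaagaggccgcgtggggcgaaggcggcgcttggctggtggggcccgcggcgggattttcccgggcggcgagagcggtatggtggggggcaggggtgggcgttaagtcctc
MRPL12: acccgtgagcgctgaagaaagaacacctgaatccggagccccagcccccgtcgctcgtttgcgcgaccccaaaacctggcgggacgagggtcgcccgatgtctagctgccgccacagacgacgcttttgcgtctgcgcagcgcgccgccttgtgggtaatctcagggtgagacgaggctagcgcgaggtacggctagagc
MRPL41: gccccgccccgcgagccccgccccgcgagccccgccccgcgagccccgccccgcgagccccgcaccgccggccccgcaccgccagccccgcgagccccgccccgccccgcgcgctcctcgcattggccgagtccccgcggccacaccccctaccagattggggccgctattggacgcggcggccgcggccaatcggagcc
MRPS12: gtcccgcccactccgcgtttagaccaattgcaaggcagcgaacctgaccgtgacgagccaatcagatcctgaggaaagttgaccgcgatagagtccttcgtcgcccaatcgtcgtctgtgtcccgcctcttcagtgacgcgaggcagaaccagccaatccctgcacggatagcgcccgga
The MRPL57 run (chr13:21176553-21176657, plus strand) is the whole stretch between its start and that of SKA3, and the capitals are the ZBTB33 palindrome. In MRPL51 (chr12:6493263-6493462, minus strand) the capitals are a pair of ETS matches on opposite strands. MRPL48 (chr11:73787674-73787873, plus strand) has 1 ETS match, and MRPL36 (chr5:1799838-1800037, minus strand) has 1 YY1 match. MRPL14 (chr6:44127309-44127508, minus strand), MRPL12 (chr17:81703167-81703366, plus strand), MRPL41 (chr9:137551679-137551878, plus strand) and MRPS12 (chr19:38930764-38930943, plus strand) show none wholly before the start.

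Most of the genes were named by both ATPases and fewer by SNF5 in the lists as deposited. This order depends on list length: with each list cut to its 6489 widest peaks, BRG1 named 10 and BRM 15 of the genes, fewer than the 24 of SNF5. In the whole lists BRG1 peaks named 66 of the 78 genes (84.6%, exact binomial 95% interval 74.7 to 91.8%), beside 63.4% of all protein-coding genes. BRM peaks named 56 (71.8%, 60.5 to 81.4%), beside 49.5%. SNF5 peaks named 24 (30.8%, 20.8 to 42.2%), beside 19.6%. In all 3 lists stood 21 genes (26.9%), beside 17.9% of all protein-coding genes. The intervals cover counting error over genes only.

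Base composition moved with these counts. Of the 70 genes with a start in the RefSeq promoter table, 67 (95.7%) had a window of 300 bases about the start with an observed to expected CpG ratio over 0.6, beside 64.2% of protein-coding genes. Among the 10164 protein-coding genes with such a window, 78.0% were named by BRG1, 65.5% by BRM and 27.8% by SNF5. Each of these shares by name lies inside the interval of the mitochondrial ribosomal protein genes. By a peak over the start, BRG1 covered 82.9% of the mitochondrial ribosomal protein genes and 70.3% of the CpG-rich ones. For BRM these shares were 75.7% and 56.5%, and for SNF5 18.6% and 12.5%, all without intervals. The part of base composition in the counts was not tested.

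**Figure D1:**
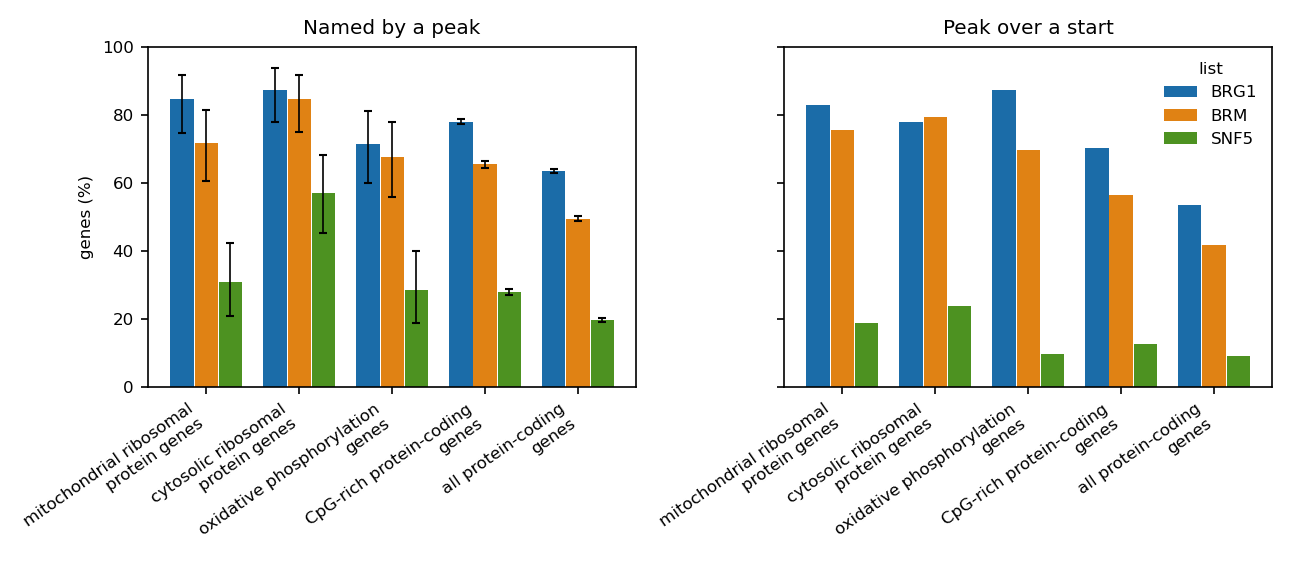
Share of genes (%) named as nearest gene by a peak (left, bars with exact binomial 95% intervals) and with a peak over a RefSeq start (right) in the BRG1, BRM and SNF5 lists, for 5 sets of genes. On the left the BRG1 bar of the mitochondrial ribosomal protein genes stands at 84.6% and that of the CpG-rich genes at 78.0%; the SNF5 bar of the cytosolic ribosomal protein genes is at 57.0% and that of the mitochondrial ones at 30.8%.

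By the name of the nearest gene, the mitochondrial and the cytosolic ribosome differed most in SNF5. Of 79 genes for proteins of the cytosolic ribosome, 45 (57.0%, 45.3 to 68.1%) were named by SNF5, against 24 of the 78 mitochondrial ones, and the intervals do not overlap. BRG1 named 69 and BRM 67 of the cytosolic ones, with intervals that overlap those of the mitochondrial set. By a peak over the start the sets were closer: SNF5 covered 15 of 63 cytosolic genes (23.8%), beside 18.6% of the mitochondrial ones, BRG1 49 (77.8%, beside 82.9%) and BRM 50 (79.4%, beside 75.7%). Of 77 genes for oxidative phosphorylation, the chain that the mitochondrial ribosome serves, 55 were named by BRG1, 52 by BRM and 22 (28.6%) by SNF5. No test across these sets was made, since genes are not replicates of a condition.

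Split by name into large and small subunit, the genes were much alike. BRG1 named 26 of 29 small-subunit genes (89.7%) and 40 of 49 large-subunit genes (81.6%). BRM named 19 small-subunit and 37 large-subunit genes, and SNF5 named 10 and 14. The genes whose protein has a bacterial counterpart were named by BRG1, BRM and SNF5 in 41, 33 and 13 of 46 cases, and those without in 25, 23 and 11 of 32. Intervals for all these pairs overlap widely.

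The name of the nearest gene hides part of the occupancy, because a peak over a start shared by neighbours carries the name of only 1 of them. Counted by position, a BRG1 peak covered a RefSeq start of 58 of the 70 genes (82.9%, beside 53.6% of all protein-coding genes and 70.3% of the CpG-rich ones). BRM covered 53 (75.7%, beside 41.8% and 56.5%). SNF5 covered 13 (18.6%, beside 8.97% and 12.5%), and an SNF5 peak lay within 500 bp of the start at 21. Each of the 3 lists had a peak over a start of MRPL1, MRPL3, MRPL16, MRPL20, MRPL30, MRPL33, MRPL44, MRPL48, MRPL57, MRPS2, MRPS14, MRPS16 and MRPS31. At MRPS2, which has 2 starts, SNF5 and BRM covered different ones, so neither start lay under all 3 lists. Counted over any start of a gene, another 37 genes had BRG1 and BRM over a start, 8 had BRG1 alone, 3 had BRM alone (MRPL19, MRPL55 and MRPS30) and 9 had none.

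Of the 8 genes that no peak named, MRPL47 and MRPL50, both large-subunit genes, and MRPS34, a small-subunit gene, had their start under peaks of a neighbour. At MRPL47 a BRG1 peak of 1472 bp and a BRM peak of 633 bp were named for NDUFB5, a subunit of respiratory complex I. At MRPL50 the peaks, 1888 bp of BRG1 and 1385 bp of BRM, were named for ZNF189. At MRPS34 they were 1682 and 1231 bp wide and named for EME2. MRPL21, which has no entry in the promoter table, overlapped peaks of all 3 lists named for IGHMBP2, of 868, 582 and 457 bp. By name alone, none of these peaks counts for MRPL21.

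The same held for genes named by BRM or SNF5 and not by BRG1. MRPL9 was named by a BRM peak of 622 bp, and the BRG1 peak over its start, 1483 bp, was named for OAZ3. MRPL49 was named by a BRM peak of 674 bp and covered by a BRG1 peak of 521 bp named for FAU, which encodes a protein of the cytosolic small subunit. MRPS2, which encodes the counterpart of bacterial S2, was named by a BRM peak of 1401 bp and an SNF5 peak of 159 bp, and a BRG1 peak of 2174 bp there was named C9orf116. MRPL51 was named by an SNF5 peak of 466 bp alone, with BRG1 and BRM peaks of 1015 and 691 bp over its start named for NCAPD2, a condensin subunit. No member named by SNF5 or BRM alone was thus without a BRG1 peak at the site.

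The other genes without a name in the lists had less. MRPL12, the stalk protein also known to bind the mitochondrial RNA polymerase, and MRPL46 had peaks beside the start and none over it. MRPL23 overlapped no peak. MRPS33 had no BRG1 peak within 90032 bp of its start and no SNF5 peak within 7869512 bp.

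BRG1 and BRM peaks of these genes were annotated as promoter more often than all peaks of their lists. The deposited annotation called 72 of their 116 BRG1 peaks promoter (62.1%, beside 37.3% of all BRG1 peaks), which means that the middle lay within about 1000 bp of a start. For BRM it was 61 of 73 (83.6%, beside 62.8%), and for SNF5 23 of 26 (88.5%, beside 81.3%). Among peaks named for any protein-coding gene the shares were 46.6% for BRG1, 70.6% for BRM and 86.4% for SNF5, so the SNF5 share at these genes was near its background. The BRG1 share rests on 2 genes: 27 of the 44 peaks away from promoters belonged to MRPS10 and MRPS27, and without the peaks of both genes 80.5% of BRG1 and 92.2% of BRM peaks were promoter peaks. This alternative was chosen after seeing the data.

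MRPS10, the counterpart of bacterial S10, had 19 BRG1, 8 BRM and 2 SNF5 peaks, the most of any of the genes. Its promoter held a BRG1 peak of 668 bp and a BRM peak of 643 bp. Of its other BRG1 peaks 13 lay inside TRERF1, the neighbouring gene for a zinc finger protein, as did all 7 remaining BRM peaks and both SNF5 peaks. The widest BRG1 peak, 2509 bp, lay in an intron 62183 bp from the MRPS10 start and held both SNF5 peaks, of 170 and 188 bp. These values describe the TRERF1 locus as much as MRPS10, since the name is that of the nearest start.

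MRPS27 had 10 BRG1 peaks, 1 BRM peak and 1 SNF5 peak. It encodes an RNA-binding protein of the pentatricopeptide repeat family that has no bacterial counterpart. Its promoter peaks, of 1889, 878 and 167 bp, lay about 12 kb inside the gene from the RefSeq start: the middle of the BRG1 peak was 12197 bp downstream. At the RefSeq start itself, 133 bp from that of PTCD2, lay a BRG1 peak of 1742 bp and a BRM peak of 1539 bp that were named for PTCD2, another gene of the same repeat family. MRPL45, related to a protein of the inner-membrane import motor, was the sole gene named by a peak but by no promoter peak: its 1 BRG1 peak, 336 bp wide, lay 10098 bp away.

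More than 1 BRG1 peak named 17 genes. After MRPS10 and MRPS27 came MRPL1 with 5, of which 4 lay in its own introns, MRPL34 with 4, and MRPL22, MRPL33 and MRPS22 with 3 each. MRPL11, MRPL20, MRPL27, MRPL41, MRPL48, MRPL58, MRPS5, MRPS12, MRPS24 and MRPS36 had 2 each. All 4 BRG1 peaks of MRPL34 were promoter peaks, 406 to 750 bp wide, spread over several annotated starts. MRPS24 had 4 BRM peaks, and MRPL11, MRPL24, MRPL33, MRPL36, MRPL41, MRPL48 and MRPS22 had 2 each besides the 8 of MRPS10. MRPL48 and MRPS10 alone had 2 SNF5 peaks.

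Promoter peaks at the genes were of ordinary width for BRG1 and BRM. The BRG1 median was 906.5 bp at these genes and 876 bp over all BRG1 promoter peaks. The BRM median was 615 bp, against 638 bp, and the SNF5 median 253 bp, against 218 bp. Width says how far a called region reaches; it moves with depth and with the caller's settings, so it is compared within a list only.

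The 3 widest BRG1 promoter peaks belonged to large-subunit genes, although the median was 897 bp over the 45 large-subunit peaks and 1182 bp over the 27 small-subunit ones. MRPL36 had the widest, 3192 bp (chr5:1799135-1802326), with a pair of BRM peaks (483 and 317 bp) and none of SNF5. This peak reached over the start of NDUFS6, a complex I gene whose start lies 1570 bp away on the other strand. MRPL14, the counterpart of bacterial L14, followed with 3053 bp (chr6:44125821-44128873) and a BRM peak of 957 bp. MRPL32, a protein whose maturation by an inner-membrane protease is a known step of ribosome assembly, had 2621 bp of BRG1 (chr7:42931080-42933700). A BRM peak of 1330 bp over its start was named for PSMA2, a proteasome gene.

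Next in width stood the intronic peak of MRPS10 and the promoter peak of MRPS27, both given above. MRPL17 had a BRG1 peak of 1754 bp and a BRM peak of 345 bp. MRPL39, which is related to threonyl-tRNA synthetase, had 1658 bp of BRG1, 809 bp of BRM and 182 bp of SNF5. MRPL44, whose fold resembles ribonuclease III, had 1609, 875 and 319 bp. MRPS16, the counterpart of bacterial S16, had 1533, 1197 and 257 bp. MRPS28 had 1524 bp of BRG1 and 184 bp of SNF5 with no BRM peak. So 5 of the 10 genes with the widest BRG1 peak had an SNF5 peak at the promoter, and a wide BRG1 peak was not always one with SNF5.

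**Figure D2:**
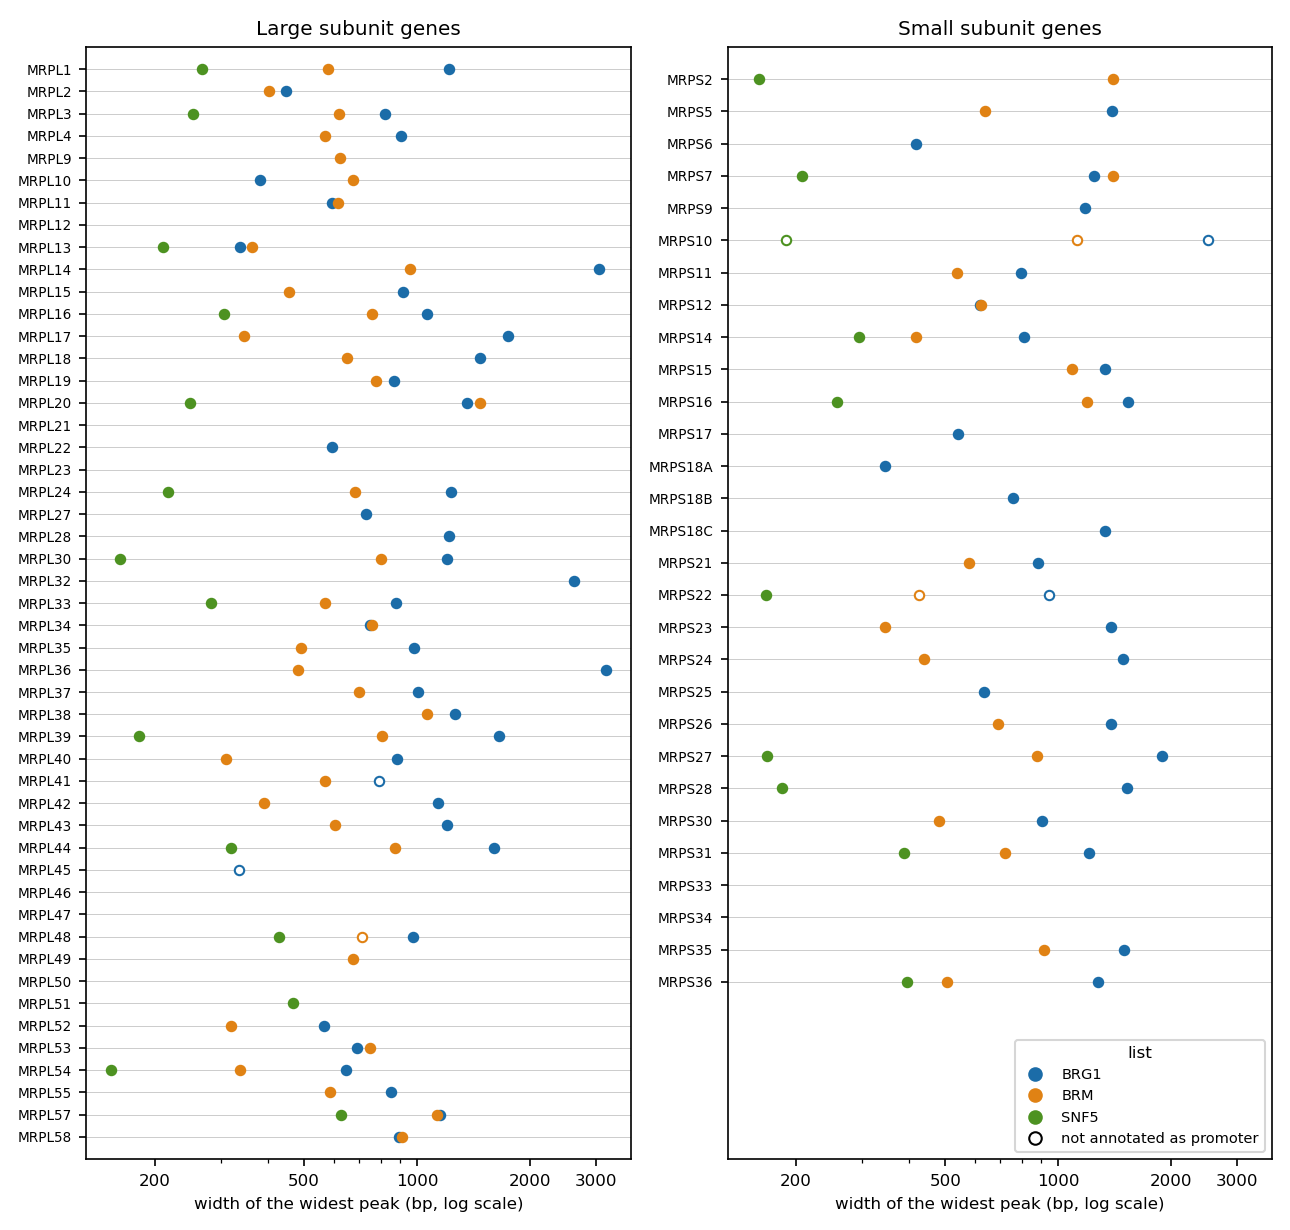
Width in bp (log scale) of the widest BRG1, BRM and SNF5 peak of each of the 49 large-subunit (left) and 29 small-subunit (right) genes; filled points are promoter peaks and open points are not, and a row without points is a gene that no peak names. MRPL36 and MRPL14 lie farthest right at 3192 and 3053 bp, and the SNF5 points lie between 153 and 626 bp.

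Of all 116 BRG1 peaks of these genes, 57.8% met a BRM peak and 19.8% an SNF5 peak, beside 35.7% and 9.58% of all BRG1 peaks. These totals differ in make-up, since 62.1% of the 116 were promoter peaks, beside 37.3% of all. Away from promoters 18.2% met BRM and 4.55% met SNF5, beside 20.2% and 2.69% of all such BRG1 peaks. SNF5 peaks at these genes lay within sites of the ATPases. All 26 met a BRG1 peak and 24 met a BRM peak. Of the 23 at promoters 22 lay wholly inside a BRG1 peak and 18 wholly inside a BRM peak. The exception for BRG1 was MRPL33, whose SNF5 peak of 282 bp ran past the upstream edge of a BRG1 peak of 880 bp. All 61 BRM promoter peaks also met BRG1. The shares of SNF5 and BRM peaks that met another list were near the background. Of all SNF5 peaks 96.1% met a BRG1 peak and 91.9% a BRM peak, and 94.8% of all BRM promoter peaks met BRG1. For peaks lying wholly inside another, no background was counted.

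The widest SNF5 peak was that of MRPL57, a protein without a bacterial counterpart: 626 bp (chr13:21176476-21177101) inside 1150 bp of BRG1 and 1128 bp of BRM. MRPL51 had 466 bp and MRPL48 430 bp, the latter with 979 bp of BRG1 and 520 bp of BRM. MRPS36 followed with 395 bp beside 1273 and 506 bp, and MRPS31 with 388 bp beside 1211 and 721 bp.

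MRPL16, MRPS14, MRPL33, MRPL1, MRPL3 and MRPL20 had SNF5 peaks of 305, 294, 282, 268, 253 and 249 bp in that order, beside BRG1 peaks of 1066, 813, 880, 1219, 824 and 1356 bp. All of them have bacterial counterparts, and L3 and L16 lie near the site where peptide bonds form. Their BRM peaks were 759, 417, 570, 581, 621 and 1469 bp wide, so that MRPL20 alone among them had a BRM peak wider than its BRG1 peak. MRPL24 had an SNF5 peak of 217 bp beside 1231 bp of BRG1 and 683 bp of BRM. MRPL13 had 211 bp, inside a BRM peak of 363 bp and a BRG1 peak of 757 bp named for MTBP. The BRG1 peak named for MRPL13, 338 bp wide, lay nearby and did not meet the SNF5 peak. MRPS7 had an SNF5 peak of 208 bp. MRPS7, at the head of the small subunit, also had a BRM peak (1403 bp) wider than that of BRG1 (1246 bp).

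The narrowest SNF5 peaks were close to the least width in the list, 151 bp. MRPS22 had 166 bp, MRPL30 162 bp, MRPS2 159 bp and MRPL54 153 bp. The BRG1 and BRM peaks of MRPS22 at the promoter were 668 and 346 bp wide, those of MRPL30 1200 and 801 bp and those of MRPL54 647 and 338 bp. With MRPL39, MRPL44, MRPS16, MRPS27, MRPS28 and the intronic peaks of MRPS10, this accounts for all 24 genes with an SNF5 peak.

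The BRG1 promoter peaks that also met the other subunits were wider. Of the 72, 20 met BRM and SNF5 and had a median of 1215 bp (647 to 1889 bp). Another 39 met BRM only, with a median of 905 bp. The peak of MRPS28 met SNF5 only, and 12 met neither, with a median of 532 bp. Over all protein-coding genes the medians for the same 3 classes were 1613.5, 1063 and 502 bp, so the order is not particular to these genes. A BRM peak was met by 81.9% of the 72, beside 61.6% of all BRG1 promoter peaks, and an SNF5 peak by 29.2% (19.0 to 41.1%), beside 21.2%. Over the BRG1 promoter peaks of CpG-rich genes these shares were 68.1% for BRM and 25.3% for SNF5.

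The 32 genes named by BRG1 and BRM and not by SNF5 had widest promoter peaks of 381 bp (MRPL10) to 3192 bp (MRPL36) for BRG1 and of 310 bp (MRPL40) to 1091 bp (MRPS15) for BRM. Besides those named above they include MRPL2, MRPL4, MRPL15, MRPL18, MRPL19, MRPL35, MRPL37, MRPL38, MRPL42, MRPL43, MRPL52, MRPL53, MRPL55, MRPS11, MRPS15, MRPS21, MRPS23, MRPS26, MRPS30 and MRPS35, and MRPL58, which encodes a peptidyl-tRNA hydrolase that rescues stalled ribosomes. The 12 named by BRG1 alone were MRPL22, MRPL27, MRPL28, MRPL32, MRPL45, MRPS6, MRPS9, MRPS17, MRPS18A, MRPS18B, MRPS18C and MRPS25. Their BRG1 promoter peaks ran from 346 bp (MRPS18A) to 2621 bp (MRPL32) with a median of 732 bp. The 3 copies of the S18 protein family thus all fell in this class by name, although BRM peaks named for PPP1R10 and HELQ covered the starts of MRPS18B and MRPS18C.

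At the promoters SNF5 lay closest to the start. The middle of the promoter peak was a median of 111.5 bp downstream of the nearest RefSeq start for BRG1 (64 peaks), 64.5 bp for BRM (54 peaks) and 51.75 bp for SNF5 (20 peaks). Over all protein-coding genes the medians were 144.5, 111 and 69.5 bp, in the same order. The SNF5 peak covered the start in 13 of 20 (65.0%) at these genes and in 37.3% over all protein-coding genes, beside 14 of 49 (28.6%) at cytosolic ribosomal protein genes. The BRG1 peak covered it in 52 of 64 (81.2%, beside 71.7%) and the BRM peak in 44 of 54 (81.5%, beside 69.2%). BRG1 peaks reached a median of 436.5 bp upstream and 638.5 bp downstream, and SNF5 peaks 106 and 191 bp.

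**Figure D3:**
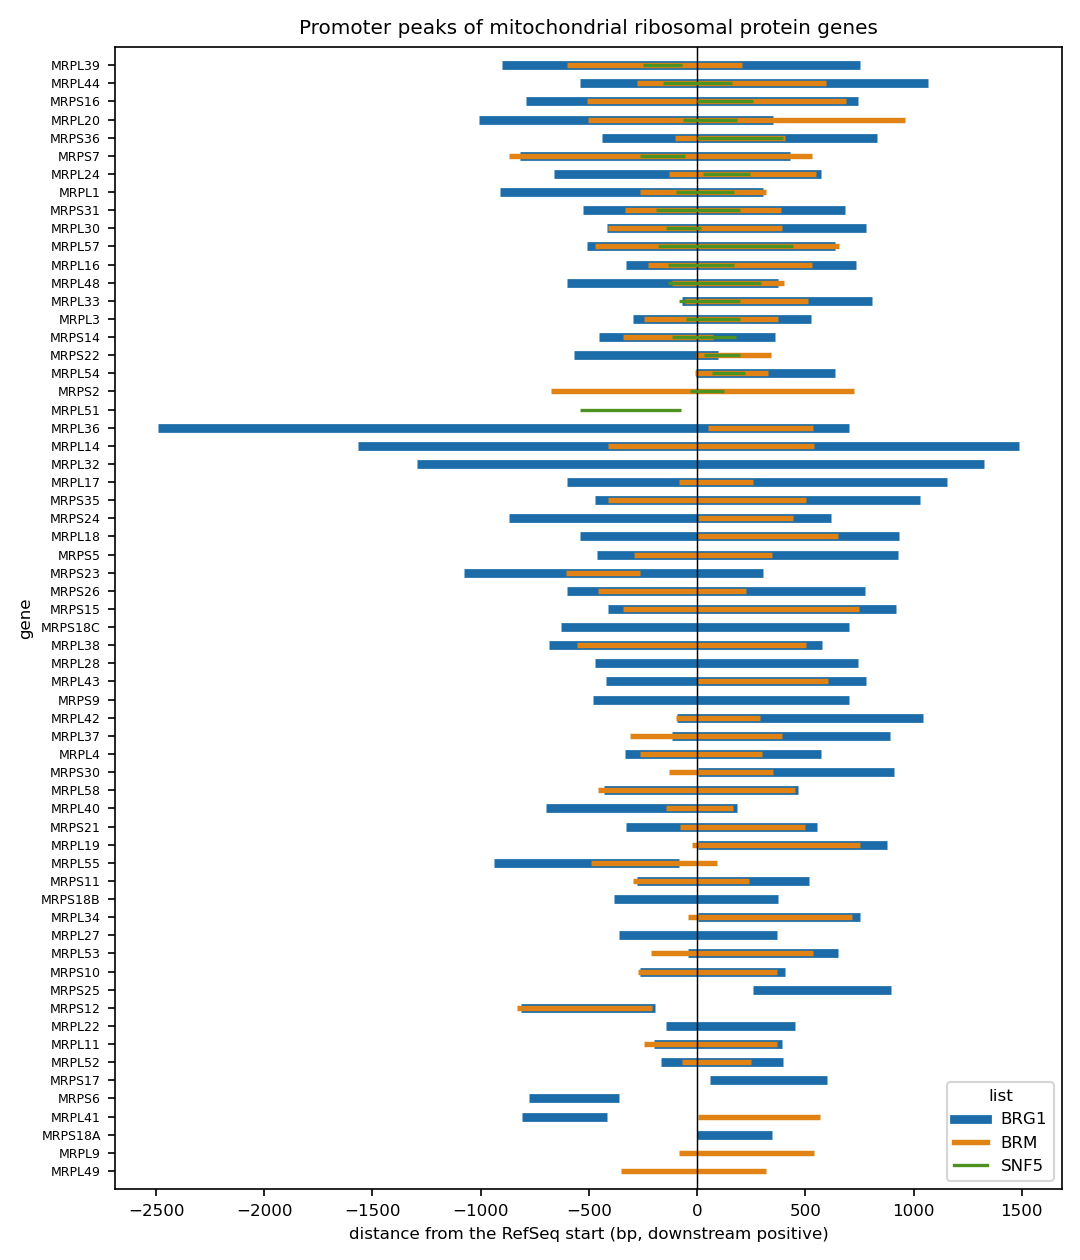
Extent of the widest promoter peak of each list about the nearest RefSeq start (x axis, bp, downstream positive; the vertical line is the start) for the 62 genes with a promoter peak within 1000 bp of a start, sorted by the width of the BRG1 peak, with the genes that have an SNF5 promoter peak at the top. Most bars cross the line and reach farther to the right of it, and 13 of the 20 SNF5 bars cross it.

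Starts without a peak over them fell into different kinds. Among the 12 genes with no BRG1 peak over a start, 3 (25%) had their start between a pair of BRG1 peaks with an edge within 500 bp on either side, beside 6.14% of the protein-coding genes without one and 13.4% of the CpG-rich ones. MRPL12 started at 81703367 on chromosome 17, in a gap of 168 bp between BRG1 peaks that ended at 81703295 and began at 81703464. BRM peaks flanked it with a gap of the same 168 bp. All 4 peaks were named for neighbours known by the clone names AC139530.1 and AC139530.2.

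MRPL41 lay in a BRG1 gap of 433 bp and a BRM gap of 395 bp. MRPS12, the counterpart of the bacterial S12 protein of the decoding centre, lay in a BRG1 gap of 255 bp. The stretch before the start of each of these 3 genes is printed above. At MRPL36 and MRPS24 the BRG1 peak ran over the start and BRM was split around it, with gaps of 75 and 199 bp. In all, 4 of the 17 genes without BRM over the start (23.5%) lay in such a gap, beside 3.54% of protein-coding genes and 6.58% of the CpG-rich ones.

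Some genes lay in stretches of a chromosome with few peaks of a list. Within the same 10 Mb as MRPS25 on chromosome 3 there were 41 BRG1, 9 BRM and 0 SNF5 promoter peaks of any gene. Around MRPL40 on chromosome 22 there were 13, 5 and 0, and around MRPS33 on chromosome 7 there were 26, 8 and 1. The nearest SNF5 peak to MRPS25 was 38282257 bp away. For these 3 genes a missing SNF5 peak cannot be told apart from the scarcity of SNF5 peaks in the region, and its part in their lack of a peak was not tested.

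Divergent neighbours, genes that start close by on the other strand and run the opposite way, were common. Of the 70 genes 26 (37.1%, 25.9 to 49.5%) had a neighbour of any kind that started within 1000 bp upstream, beside 22.1% of all protein-coding genes and 29.6% of the CpG-rich ones. The neighbour was protein-coding for 20 (28.6%, 18.4 to 40.6%), beside 12.3% and 16.9%. The distances ran from 41 to 840 bp with a median of 145.5 bp, and 16 were within 200 bp. Among genes for oxidative phosphorylation 42.9% had a neighbour of any kind.

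The 8 closest pairs were tight enough for 1 peak to span both starts. MRPS21 and a long noncoding RNA started 41 bp apart under 882 bp of BRG1 and 580 bp of BRM. MRPL54 and a long noncoding RNA started 42 bp apart, and its BRG1 and BRM peaks covered the MRPL54 start and not that of the neighbour. MRPL27 and EME1, a subunit of a DNA structure-cutting nuclease, started 45 bp apart under 732 bp of BRG1 with no BRM peak.

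MRPL49 and FAU, a mitochondrial and a cytosolic ribosomal protein gene, started 49 bp apart under 674 bp of BRM, while the BRG1 peak covered the MRPL49 start alone. MRPL3 (82 bp), MRPS35 (85 bp) and MRPS16 (97 bp) faced noncoding genes, and in each case 1 BRG1 peak and 1 BRM peak covered both starts. MRPS2 and PIERCE1, the current name of C9orf116, started 96 bp apart under 2174 bp of BRG1.

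SNF5 covered both starts at 2 pairs, MRPL57 with the kinetochore gene SKA3 (106 bp apart) and MRPL30 with MITD1 (126 bp apart). A single BRG1 peak covered both starts at 15 of the 26, and a single BRM peak at 15. The same share over all divergent protein-coding genes was not counted, so these counts have no background. Where the neighbour also serves mitochondrial protein synthesis, the picture was mixed. MRPL46 and MRPS11, large- and small-subunit genes that started 320 bp apart, shared a BRG1 peak of 797 bp and a BRM peak of 538 bp that covered the MRPS11 start and came within 42 and 25 bp of that of MRPL46. MRPS12 and SARS2, the mitochondrial seryl-tRNA synthetase gene, started 181 bp apart, and no peak of any list touched the stretch between them.

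Coverage of the start was counted with and without a divergent neighbour. BRG1 covered the start of 23 of 26 (88.5%) with and 35 of 44 (79.5%) without such a neighbour, and BRM 22 (84.6%) and 31 (70.5%). SNF5 did so at 5 (19.2%) and 8 (18.2%). Over all protein-coding genes the BRG1 shares were 76.1% and 47.1%, those of BRM 63.1% and 35.8% and those of SNF5 14.8% and 7.31%. By name the order for BRG1 was the other way: its peaks named 80.8% of the members with and 88.6% of those without a neighbour.

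**Figure D4:**
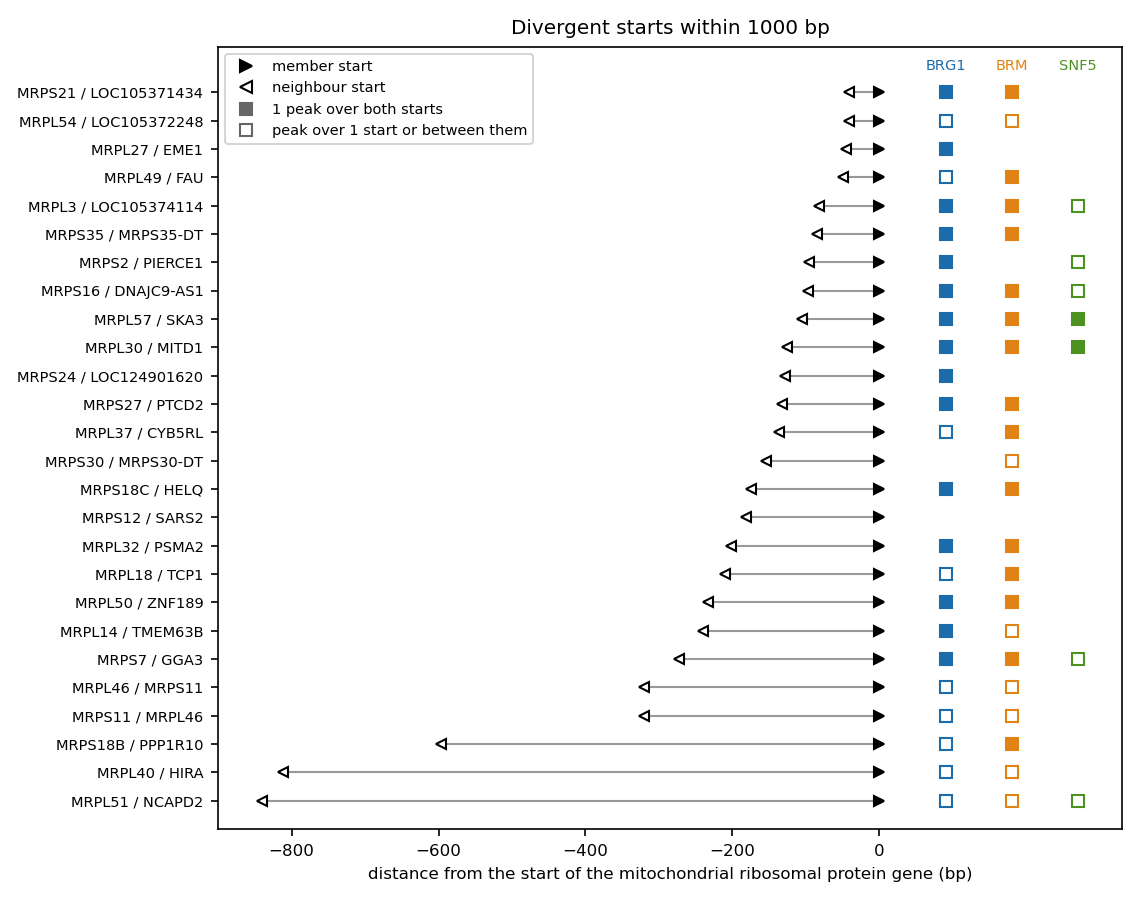
Distance in bp between the start of each of the 26 genes (filled arrowhead at 0) and the start of its divergent neighbour (open arrowhead), ordered by distance; squares at the right show, for each list, a peak over both starts (filled) or over 1 start or between them (open), taken at the start nearest the neighbour. The distances run from 41 to 840 bp, BRG1 and BRM have 15 filled squares each and SNF5 has 2, and the row of MRPS12 and SARS2 has none.

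The 300-base windows (250 before and 50 after the start) were searched on both strands for exact letters. The ETS motif CCGGAAG was in 30 of 70 (42.9%), beside 16.5% of the windows of all protein-coding genes and 22.0% of the CpG-rich ones. The YY1 motif, whose letters are the capitals printed for MRPL36 read on the other strand, was in 13 (18.6%), beside 2.22% and 3.18%. The NRF1 palindrome was found in MRPL17 alone (1.43%, beside 1.99%). At least 1 of the 3 was in 40 (57.1%), beside 19.5% and 26.4%. Raised shares were not particular to these genes. In the 63 windows of cytosolic ribosomal protein genes ETS was in 34.9%, YY1 in 4.76% and at least 1 of the 3 in 39.7%. In the 63 of oxidative phosphorylation genes the shares were 33.3, 12.7 and 47.6%. A match is a description of the letters and not a bound site.

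The ETS and YY1 matches lay at different places. Of the 40 ETS matches, in 30 genes, 23 began within 60 bases before the start, and 8 genes held 2 or more. MRPS34, with 3 before the start, and MRPS22, with 3 about it, held the most. Of the 13 YY1 matches 10 began 7 to 36 bases after the start, all on the gene's own strand; the genes are MRPL22, MRPL38, MRPL42, MRPL46, MRPL50, MRPS10, MRPS18A, MRPS18B, MRPS24 and MRPS30. The others, in MRPL32, MRPL36 and MRPL52, lay before it. Both motifs were in 4 genes.

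Of the ETS matches 33 lay in a BRG1 peak, 27 in a BRM peak and 10 in an SNF5 peak. Of the YY1 matches 12 lay in a BRG1 peak, 9 in a BRM peak and 0 in an SNF5 peak. An SNF5 peak covered the start of 8 of the 30 genes with an ETS match and 5 of the 40 without, and of 0 of the 13 genes with a YY1 match and 13 of the 57 without. Over all protein-coding genes SNF5 covered 45 of the 352 with a YY1 match (12.8%) and 16.0% of those with an ETS match, beside 8.97% of all. The count of 0 rests on 13 genes, and no test was made.

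The ZNF143 motif was in 7 windows (10%, beside 3.25% of all protein-coding genes and 4.43% of the CpG-rich ones): those of MRPL19, MRPL24, MRPL34, MRPL42, MRPL50, MRPS22 and MRPS26. Its share was 6.35% in cytosolic ribosomal protein genes and 7.94% in those for oxidative phosphorylation. SNF5 covered the start of none of the 7, beside 13 of the 63 genes without the motif. MRPL24 and MRPS22, among the 7, were still named by an SNF5 promoter peak that did not cover a start. The share over all protein-coding genes with a ZNF143 match was not counted, and no test was made. The SP/KLF motif GGGCGGGG was in 38.6% (beside 36.6% and 46.8%), the NFY motif CCAAT in 32.9% (42.1% and 40.3%) and the E-box CACGTG in 14.3% (10.9% and 12.6%). The AP-1 motif TGANTCA, the CRE TGACGTCA and the ZBTB33 palindrome (the capitals of MRPL57) were in 1 window each (1.43%). Over all protein-coding genes these 3 were in 8.04%, 3% and 0.726%, and over the CpG-rich ones in 4.6%, 3.98% and 1.04%. TATAAA was in 5.71% (12.4% and 6.78%). The ZBTB33 match was that of MRPL57, 57 bases before the start and inside the peaks of all 3 lists. No motif's letters contain another's, though SP/KLF and other GC-rich letters can overlap in a window.

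**Figure D5:**
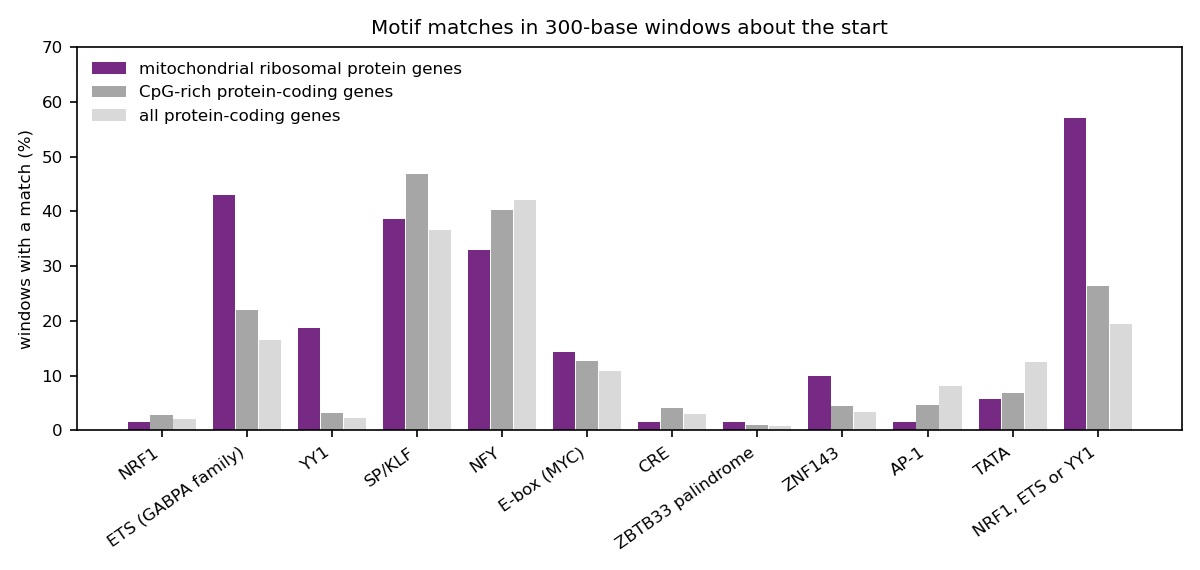
Share (%) of the 300-base windows about the start that hold each motif, for the 70 mitochondrial ribosomal protein genes, the 10164 CpG-rich protein-coding genes and all 15843 protein-coding genes with a window. The ETS bars read 42.9, 22.0 and 16.5% and the YY1 bars 18.6, 3.18 and 2.22%, while the NRF1 bars are all under 3%.

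Genes that work beside these proteins were counted in the same way. Over all protein-coding genes the shares named by BRG1, BRM and SNF5 were 63.4, 49.5 and 19.6%. Over the CpG-rich ones they were 78.0, 65.5 and 27.8%. The sets below are small, and their BRG1 counts lie near the CpG-rich share. A BRG1 peak covered a start of 53.6% of all protein-coding genes and 70.3% of the CpG-rich ones. Of 5 ribosomal proteins with other names (DAP3, PTCD3, AURKAIP1, CHCHD1 and GADD45GIP1), 4 were named by BRG1, 3 by BRM and 0 by SNF5, and BRG1 covered the start of all 5. Of 12 factors of mitochondrial translation 9 were named by BRG1, 10 by BRM and 6 by SNF5, among them MTIF2, an initiation factor, with 807, 480 and 563 bp. Of 25 genes for the assembly of the ribosome the counts were 20, 18 and 9, with MTG1, a GTPase, at 1547, 963 and 430 bp. Of 19 mitochondrial aminoacyl-tRNA synthetases, which charge the tRNAs that the ribosome reads, the counts were 14, 12 and 6. IARS2 had the widest SNF5 peak there, 752 bp inside 1415 bp of BRG1.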

How the data were processed

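The authors fixed the cells in 0.3% formaldehyde and sequenced the immunoprecipitated chromatin, per the labels' protocols. The submitters' processing notes name Bowtie2, SAMtools, MACS2 and deepTools 2.5.2, and hg38 as the build. How these were used, whether replicates were pooled, and the input, threshold and filter were not given in the sources used here. Each deposited list gives a peak's position, width and distance to the nearest start in bp and its type, per the file headers; the width is end minus start plus 1 in every row, and distances run from the middle of a peak.

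Members were found by name and set beside RefSeq protein-coding genes matched by symbol or an unambiguous synonym (18.7% of BRG1 and 13.1% of BRM peaks had a name not matched). Starts and promoter windows came from RefSeq (GRCh38.p14) for 70 members; MRPL2, MRPL10, MRPL13, MRPL15, MRPL21, MRPL23, MRPL35 and MRPS28 were used by name and span only. A gene with several starts counted as covered if any start was, and positions are from the start nearest a peak. Overlap meant 1 bp. Shares have exact (Clopper-Pearson) 95% binomial intervals, which cover counting error only. No test between conditions or sets was made: there is 1 list per subunit. Overlap, neighbour and motif routines were tested on simulated data and recovered what was planted.

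Named were the 10 members with the widest BRG1 peak, all with an SNF5 peak, those no peak names, those named by BRM or SNF5 and not BRG1, those with several peaks or no promoter peak, and the 8 closest divergent pairs. The members, gene lists and rule were chosen with earlier results of these data known. Alternatives were other peaks, distances, overlaps and windows. The histone mark and input samples were not analysed here. The software was Python 3.11.15 with numpy 2.4.6 and pandas 2.3.3; intervals came from scipy 1.17.1 and figures from matplotlib 3.10.9.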

Additional observations from a re-analysis of the deposited data

How the results depend on the processing

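No paired analysis was possible because the deposited lists are 1 per subunit, and for the same reason no replicate could be left out. Of 44 alternative values, 14 moved. With the widest peaks of each list only, as many as SNF5 has (6489), BRG1 named 10 and BRM 15 of the genes, fewer than the 24 of SNF5, so the order of the lists turned round and depends on list length. With the wider 50% of the list SNF5 named 14. A peak within 500 bp of the start was found at 21 genes for SNF5, and within 1000 bp also at 21. When promoter was taken to mean covering the gene's RefSeq start, the shares fell to 47.3% (BRG1), 64.7% (BRM) and 54.2% (SNF5). Without MRPS10 and MRPS27, an alternative added after seeing the data, they were 80.5% for BRG1 and 92.2% for BRM. Peaks over a start under any name had median widths of 1203 bp (BRG1) and 691 bp (BRM). They were not wide beside all protein-coding genes. At genes with and without a divergent neighbour the BRG1 medians over a start were 1200 and 1211 bp, beside 1497 and 1270 bp. Those of BRM were 859 and 638 bp, beside 909 and 830 bp. With promoter peaks only, 81.9% of BRG1 peaks met BRM and 29.2% met SNF5. The depth of the lists is unknown, so a missing peak cannot be read as absence.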

Other observations

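Pseudogenes of the family were named by peaks as well and were not counted among the genes. MRPS31P5, a copy of MRPS31, had promoter peaks of 1063 bp (BRG1), 654 bp (BRM) and 151 bp (SNF5). MRPS31 itself had 1211, 721 and 388 bp. MRPL35P2 was named by a BRG1 peak of 2584 bp that was annotated as distal, 4856 bp from its start, with 2 SNF5 peaks of 346 and 162 bp near it. The BRG1 peak of MRPL35 (984 bp) was a promoter peak, so the widths are not of like sites. Reads from near-identical copies can be placed on either, so peaks that lie on a copy of a gene are uncertain.

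Of 10 regulators of nuclear genes for mitochondria, 7 were named by BRG1, 7 by BRM and 5 by SNF5, and NRF1 and PPARGC1A were named by no peak. The shares named were 63.4, 49.5 and 19.6% over all protein-coding genes and 78.0, 65.5 and 27.8% over the CpG-rich ones. A BRG1 peak not named for PPARGC1A covered its start, and NRF1 had no start in the promoter table. GABPA, the ETS factor named above, had 1606 bp of BRG1 and 1770 bp of BRM at its promoter. An SNF5 peak not named for GABPA covered its start. PPRC1, a coactivator, had BRG1, BRM and SNF5 peaks of up to 1944, 1102 and 215 bp. TFAM, not among the 10, which packages mitochondrial DNA and starts its transcription, had up to 1337, 858 and 307 bp. No explanation was tested for any of these values.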
